A study of Homo sapiens with 6 samples.

Results

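The enzymes that build cholesterol and fatty acids from cytosolic acetyl-CoA were followed in K562 cells, a chronic myeloid leukemia (CML) cell line grown in suspension, with and without hyperoside, a plant flavonol glycoside. The genes were chosen by name from the textbook pathways, 19 for sterol synthesis and 14 for the synthesis, elongation and desaturation of fatty acids. Of these 33 genes, 32 were found among the 24960 genes of the deposited count table, and all 32 passed the filter on low counts. SCD5, a stearoyl-CoA desaturase, was not analysed here. The 6 RNA-seq libraries of total RNA were 3 named only as control and 3 of cells given 2 mM hyperoside. How long the cells were exposed before RNA was taken is not stated, nor whether the replicates were separate cultures. The p-values therefore measure the spread between these libraries, which may be technical.

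Cholesterol is made in a linear pathway. Acetyl-CoA is condensed and reduced to mevalonate, mevalonate is turned into isoprene units and farnesyl diphosphate, farnesyl diphosphate is joined to squalene, squalene is cyclised to lanosterol, and lanosterol is trimmed and reduced to cholesterol. The fatty acid pathway draws on the same acetyl-CoA, which is carboxylated to malonyl-CoA and built into palmitate, and elongases and desaturases then lengthen and unsaturate the chains. Genes of both pathways are textbook targets of the SREBP transcription factors, which are held in the endoplasmic reticulum by INSIG proteins and the escort protein SCAP when sterols are plentiful and released to the nucleus when sterols are scarce. Membrane sterols and unsaturated fatty acids are needed by dividing leukemia cells.

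Library totals ran from 35613283 to 36754725 counts, and intervals given here cover the spread between libraries as well as counting error. The groups separated along the component that held 69.8% of the variance in a principal component analysis of 500 genes, and along the next, which held 10.1%, control replicate 1 stood apart from the other control libraries. GATA1 and TAL1, defining transcription factor genes of the erythroid K562 line, were expressed in every library, with mean FPKM of 94.3 and 19.6 in the control group. Of 5 such markers 3 were called higher (KLF1, LMO2 and EPOR), and the summed level of the 5 was 134.5 to 161.7 FPKM in the control group and 170.2 to 189.9 in the hyperoside group. Of 9 markers of lymphoid, epithelial, stromal, liver and fat cells, ADIPOQ had 0 counts in every library and MS4A1 at most 1. The summed level of these 9 markers, mostly CD3D and EPCAM, was 87.2 to 95.01 FPKM in the control group and 102.3 to 105.0 in the hyperoside group, and their part in the results was not tested. Of the 9, CD3D was called higher (122.4% of the control mean), COL1A1 was called lower (50.4%), 5 were not called, EPCAM among them (98.3%), and 2 were too low to test. In bulk RNA, a change in the share of cells and a change in RNA per cell cannot be told apart.

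Transcripts of both pathways were lower in the hyperoside group. Of the 19 sterol genes, 16 were called lower, 1 was called higher (PMVK) and 2 were not called (GGPS1 and TM7SF2). Of the 13 fatty acid genes, 8 were called lower, 1 was called higher (ACACB) and 4 were not called (ELOVL1, ELOVL6, ELOVL7 and FADS1). A call is a p under 0.05 after Benjamini-Hochberg adjustment over the 15095 genes tested, from the quasi-likelihood test of edgeR. The background is high, since 45.3% of the tested genes were called, 23.2% as lower and 22.1% as higher. This compares with 84.2% of the sterol genes and 61.5% of the fatty acid genes called lower. The median log2 fold change, hyperoside minus control, was -0.71 over the sterol genes and -0.46 over the fatty acid genes, beside 0.0032 over all tested genes. Of all tested genes, 9.003% had a fold change at or below the sterol median and 16.5% at or below the fatty acid median. Without control replicate 1, which stood apart, the counts of called genes in both branches were the same, and the medians were -0.63 and -0.41. The difference between the branches was described and not tested, because their members were chosen with results known.

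**Figure D1:**
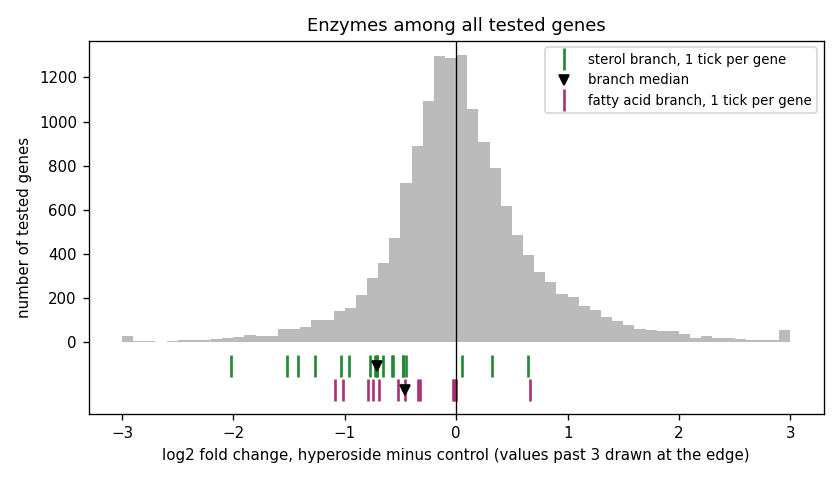
Histogram of the log2 fold change, hyperoside minus control, of the 15095 tested genes (grey, number of genes per bin), with 1 tick below it for each of the 19 sterol genes (green) and 13 fatty acid genes (purple). The triangles mark the branch medians, -0.71 and -0.46, which lie left of the peak of all genes near 0.

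At the study's threshold of a fold change above 2, 7 of the 32 enzymes passed, and each was lower. They were MSMO1, FDFT1, MVD, DHCR7 and IDI1 of the sterol branch and FASN and SCD of the fatty acid branch. Among all tested genes 3.76% passed this threshold downwards and 6.43% upwards. The normalized levels of the groups did not overlap in 24 enzymes with the hyperoside libraries below the control libraries, and in 2 with the hyperoside libraries above. Among all tested genes 27.3% were separated downwards and 27.1% upwards.

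**Figure D2:**
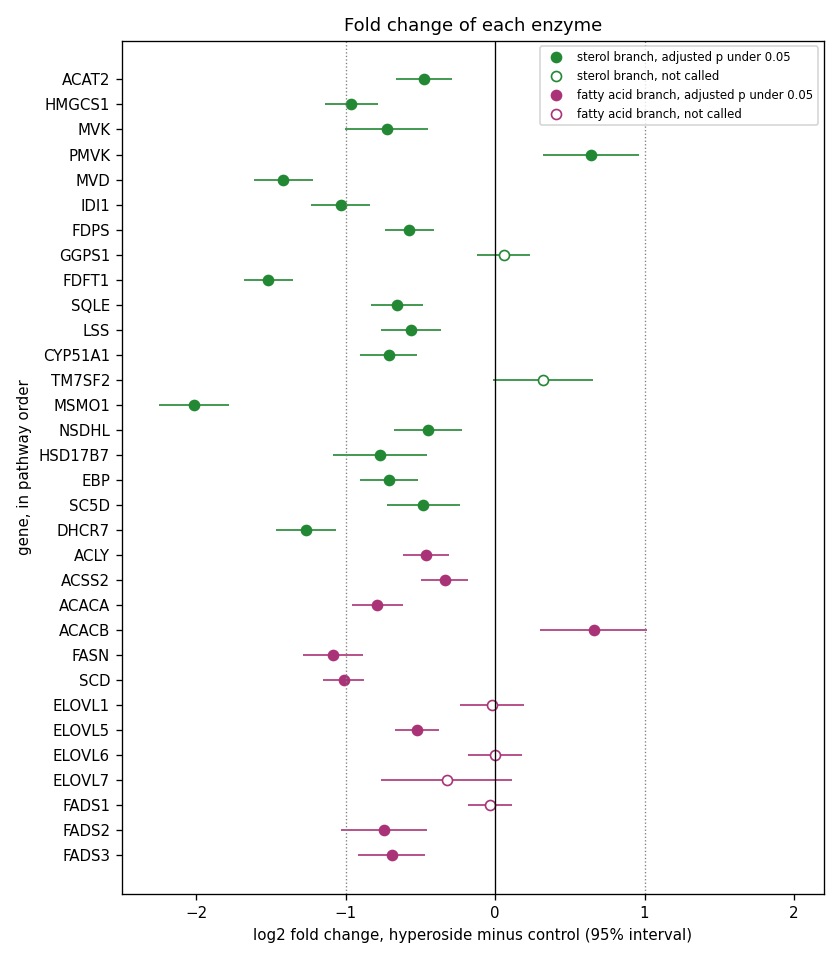
The log2 fold change, hyperoside minus control, of each of the 32 enzymes in pathway order, with its 95% interval from edgeR's quasi-likelihood fit (bars). Filled points have an adjusted p under 0.05, dotted lines mark a fold change of 2, and points to the right of 0 with a filled symbol are PMVK (0.64) and ACACB (0.66).

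The stretches before the start sites of enzymes lowered past a fold of 2 are shown because members that moved together can be read side by side. They come from RefSeq windows on GRCh38.p14 of 250 bases before each annotated start, from which bases in an exon of GENCODE 29 were left out. Shown are the 5 genes past a fold change of 2 with a window, and for a gene with several starts the exon-free stretch with the most CCAAT boxes, 5′ to 3′ on the strand of the gene. Capitals mark CCAAT or its reverse complement ATTGG, the motif bound by NF-Y, a textbook partner of SREBP factors.
MVD, chr16:88663162-88663297, minus strand: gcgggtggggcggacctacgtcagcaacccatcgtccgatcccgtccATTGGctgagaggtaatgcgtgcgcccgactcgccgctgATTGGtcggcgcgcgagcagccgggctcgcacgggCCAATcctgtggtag
IDI1, chr10:1049171-1049369, minus strand: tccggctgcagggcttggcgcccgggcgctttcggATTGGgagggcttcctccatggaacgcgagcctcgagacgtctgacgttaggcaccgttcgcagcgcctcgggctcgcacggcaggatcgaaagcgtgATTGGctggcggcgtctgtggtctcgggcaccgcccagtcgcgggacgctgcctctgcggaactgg
MSMO1, chr4:165327419-165327622, plus strand: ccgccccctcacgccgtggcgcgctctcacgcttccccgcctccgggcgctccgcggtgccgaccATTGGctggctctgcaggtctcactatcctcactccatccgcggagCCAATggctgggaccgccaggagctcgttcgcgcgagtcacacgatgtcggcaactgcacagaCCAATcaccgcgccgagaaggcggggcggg
DHCR7, chr11:71448436-71448643, minus strand: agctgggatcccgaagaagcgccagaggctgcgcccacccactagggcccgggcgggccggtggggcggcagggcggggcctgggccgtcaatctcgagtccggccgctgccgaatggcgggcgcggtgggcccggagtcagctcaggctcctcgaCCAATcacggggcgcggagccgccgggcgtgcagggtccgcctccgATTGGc
SCD, chr10:100346983-100347123, plus strand: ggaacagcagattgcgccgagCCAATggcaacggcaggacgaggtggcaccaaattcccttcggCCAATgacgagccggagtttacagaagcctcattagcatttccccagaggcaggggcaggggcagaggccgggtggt
MVD and MSMO1 each hold 3 such boxes in these stretches, and IDI1, DHCR7 and SCD hold 2 each. Another IDI1 window holds 3 and is not shown, because exons cover much of it. Because stretches were picked by their boxes, these counts do not describe every start. A further exon-free stretch of IDI1 and one of DHCR7 hold 0 boxes. Windows of 250 bases were matched for 16 of the 19 sterol genes (not ACAT2, FDFT1 and SQLE) and 12 of the 14 fatty acid genes (not FASN and SCD5), and windows of the same gene can overlap. CCAAT on either strand was found in 16 of the 23 sterol windows (69.6%), from 14 genes, and in 10 of the 18 fatty acid windows (55.6%), from 8 genes, beside 32.0% of all 35116 windows and 33.1% of the windows of tested genes. The GC box GGGCGG was found in 87.0% of the sterol windows and 77.8% of the fatty acid windows, beside 60.9% of the windows of tested genes. The E-box CACGTG was found in 2 sterol windows, both of SC5D, and 1 fatty acid window, that of ELOVL5, which is 8.7% and 5.6% of the windows beside 8.1% of those of tested genes. TCACNCCAC, a form of the sterol regulatory element, was found in 0 of the 23 sterol windows and 0 of the 18 fatty acid windows. It was in 0.9% of all windows and 0.8% of those of tested genes. At so low a share, 0 matches in so few windows says little, and other forms of the element were not searched. The CCAAT box was found for each gene called lower that had a window, except CYP51A1 and FADS2. It was also found in windows of GGPS1, TM7SF2 and ELOVL1, which were not called, and of ACACB, which was called higher. No window of ELOVL6, ELOVL7 and FADS1, which were not called, or of PMVK, which was called higher, held it. A link between the box and the calls was not tested. These matches are letters in a window and not measured binding.

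The segment from acetyl-CoA to farnesyl diphosphate had 6 of 7 genes called lower, or 85.7%, beside 23.2% of all tested genes. Its median log2 fold change was -0.73. MVD, which decarboxylates diphosphomevalonate to isopentenyl diphosphate, fell most in this segment. It lies at chr16:88651935-88663161, minus strand, in GENCODE 29 on GRCh38. MVD had 108.8, 95.1 and 85.7 CPM (counts scaled to the TMM-adjusted library size) in control replicates 1, 2 and 3 and 34.5, 36.2 and 37.7 in hyperoside replicates 1, 2 and 3. Every hyperoside library was below every control library, at 37.5% of the control mean (log2 fold change -1.42, standard error 0.09, edgeR adjusted p = 2.66e-09). IDI1, the isomerase that makes dimethylallyl diphosphate from the product of MVD, had 72.7, 91.6 and 83.9 CPM in the control group and 42.5, 41.1 and 37.5 CPM in the hyperoside group. Its groups did not overlap (log2 fold change -1.04, standard error 0.09, edgeR adjusted p = 1.1e-07). HMGCS1, which condenses acetoacetyl-CoA and acetyl-CoA to HMG-CoA, fell from 131.3 ± 12.2 to 67.4 ± 4.16 CPM (SD, n = 3 libraries each), a log2 fold change of -0.96 (edgeR adjusted p = 6.69e-08).

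Smaller falls were seen in the other lowered genes of this segment. MVK, the mevalonate kinase, had a log2 fold change of -0.73 (95% interval -1.01 to -0.45). FDPS, which makes farnesyl diphosphate, had -0.58 (95% interval -0.74 to -0.41). ACAT2, the cytosolic thiolase at the entry of the pathway, had -0.48 (95% interval -0.66 to -0.29). The adjusted p-values of these 3 genes were between 1.12e-05 and 2.98e-04 in edgeR's test. The exons of ACAT2 overlap those of TCP1 and SOD2 on the opposite strand, those of MVK overlap MMAB, and FDPS has 8 annotated pseudogenes. Exons of HMGCS1 (AC114947.2), IDI1 (IDI2-AS1) and FDPS (RUSC1-AS1) also overlap an opposite-strand gene. So do exons of FDFT1, LSS and ACLY, described below. No source says whether strand was used in counting, so part of the counts of all these genes could come from such neighbours and copies.

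PMVK, the kinase that acts between MVK and MVD, rose. It had 12.2, 8.38 and 7.75 CPM in the control group and 14.3, 15.2 and 14.7 CPM in the hyperoside group (log2 fold change 0.64, standard error 0.15, edgeR adjusted p = 0.00235). Control replicate 1 was the highest control library, and the groups did not overlap. Without control replicate 1 the log2 fold change of PMVK was 0.87 (edgeR adjusted p = 7.51e-06). GGPS1, which draws farnesyl diphosphate off to geranylgeranyl diphosphate for protein prenylation, had 47.2, 44.3 and 49.4 CPM in the control group and 50.8, 47.2 and 48.4 CPM in the hyperoside group. These values overlapped, the 95% interval of its log2 fold change was -0.12 to 0.23, and the adjusted p was 0.616 in edgeR's test. Its exons overlap those of TBCE and ARID4B.

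**Figure D3:**
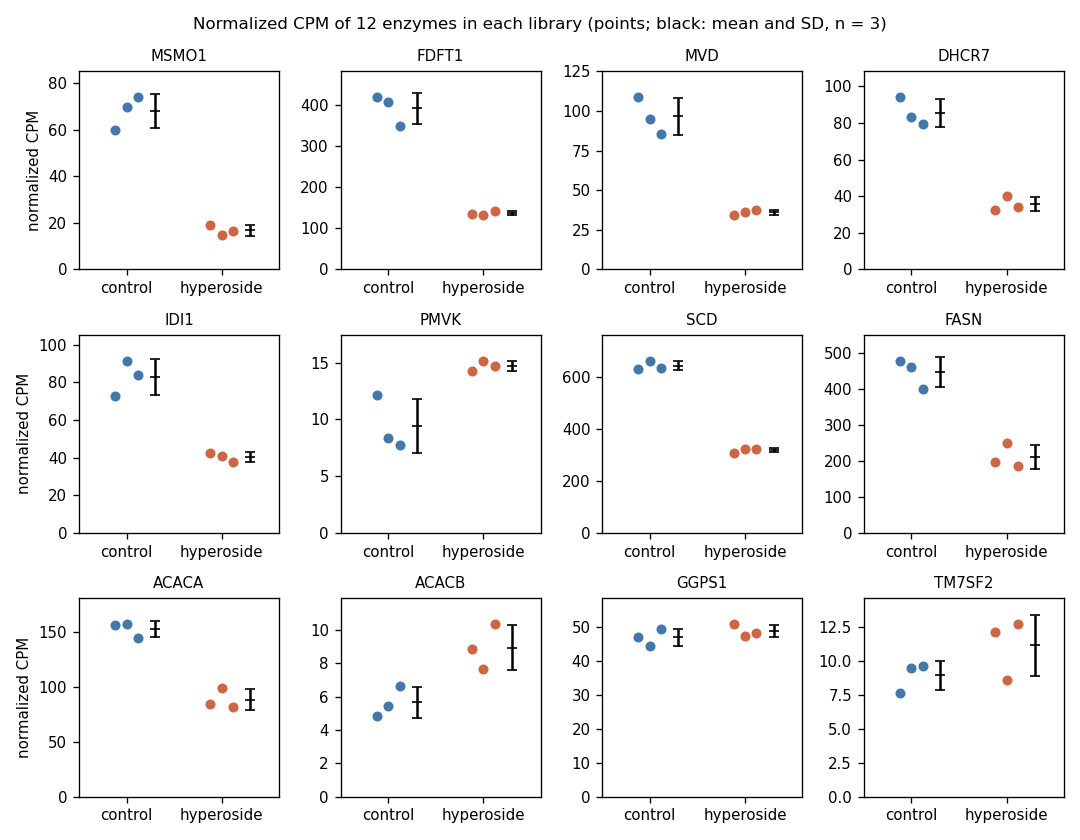
Normalized CPM of 12 enzymes in each of the 6 libraries (points, control in blue and hyperoside in orange), with the mean and SD of the 3 libraries of a group in black. In MSMO1, FDFT1, MVD, DHCR7, IDI1, SCD, FASN and ACACA each hyperoside point lies below the control points, in PMVK and ACACB above them, and in GGPS1 and TM7SF2 the groups overlap.

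All 3 genes from farnesyl diphosphate to lanosterol were called lower, beside 23.2% of all tested genes. FDFT1 encodes squalene synthase, which commits farnesyl diphosphate to sterols, and had the smallest p among the 32 enzymes, rank 22 of the tested genes. FDFT1 had 418.5, 405.3 and 349.2 CPM in control replicates 1, 2 and 3 and 134.7, 132.4 and 142.4 CPM in hyperoside replicates 1, 2 and 3. The hyperoside libraries lay close together at 34.9% of the control mean (log2 fold change -1.52, standard error 0.08, edgeR adjusted p = 1.32e-10). SQLE, the squalene epoxidase, fell from 206.9 ± 19.5 to 131.2 ± 9.08 CPM (SD, n = 3 libraries each), a log2 fold change of -0.66 (edgeR adjusted p = 4.22e-06). LSS, the lanosterol synthase, fell from 50.1 ± 5.83 to 33.9 ± 0.46 CPM (SD, n = 3 libraries each), a log2 fold change of -0.56 (edgeR adjusted p = 0.000113). The intervals of SQLE and LSS, -0.83 to -0.49 and -0.76 to -0.36, did not reach that of FDFT1, -1.68 to -1.35.

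Of the 8 genes from lanosterol to cholesterol, 7 were called lower, or 87.5%, beside 23.2% of all tested genes. The median log2 fold change over the 8 was -0.71. MSMO1, the sterol methyl oxidase that starts the demethylation completed by NSDHL and HSD17B7, had the largest fall of all 32 enzymes. It lies at chr4:165327623-165343160, plus strand, in GENCODE 29 on GRCh38. MSMO1 had 59.9, 69.8 and 74.0 CPM in the control group and 19.2, 14.5 and 16.5 CPM in the hyperoside group. Its hyperoside mean was 24.7% of the control mean (log2 fold change -2.02, standard error 0.11, edgeR adjusted p = 3.13e-10). DHCR7, the reductase that makes cholesterol from its immediate precursor, had 94.2, 83.5 and 79.4 CPM in the control group and 32.5, 40.0 and 34.4 CPM in the hyperoside group. The groups did not overlap (log2 fold change -1.27, standard error 0.10, edgeR adjusted p = 1.27e-08).

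The enzymes that work beside MSMO1 fell less. NSDHL, the decarboxylase of the same demethylation, had a log2 fold change of -0.45 (95% interval -0.67 to -0.22), and HSD17B7, its ketoreductase, had -0.77 (95% interval -1.09 to -0.45). The interval of MSMO1, -2.25 to -1.78, lay below both. CYP51A1, the lanosterol demethylase, had -0.71 (edgeR adjusted p = 6.04e-06), EBP, the sterol isomerase, had -0.71 (edgeR adjusted p = 7.08e-06), and SC5D, the desaturase before DHCR7, had -0.48 (edgeR adjusted p = 0.00252). HSD17B7 has 2 annotated pseudogenes and CYP51A1 has 3, CYP51A1 also has an antisense gene, and reads shared with them are uncertain.

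TM7SF2, which reduces the double bond left by CYP51A1, was not called. It had 7.68, 9.52 and 9.65 CPM in the control group and 12.2, 8.61 and 12.7 CPM in the hyperoside group, with hyperoside replicate 2 inside the range of the control libraries. Its log2 fold change was 0.32 (95% interval -0.02 to 0.66, edgeR adjusted p = 0.113). Without hyperoside replicate 2 it was 0.48 with an edgeR adjusted p of 0.0223, the only call among the 32 enzymes that changed when 1 library was left out, and the adjusted p reached 0.351 without hyperoside replicate 3. Exons of TM7SF2 overlap those of VPS51 on the same strand.

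In the fatty acid branch, 4 of the 5 genes from acetyl-CoA to palmitate were called lower, or 80.0%, beside 23.2% of all tested genes. FASN, the fatty acid synthase, had 479.6, 463.2 and 401.5 CPM in control replicates 1, 2 and 3 and 197.9, 249 and 187.2 CPM in hyperoside replicates 1, 2 and 3. Hyperoside replicate 2 was the highest of its group and still below the control libraries (log2 fold change -1.08, standard error 0.10, edgeR adjusted p = 8.93e-08). ACACA, the cytosolic acetyl-CoA carboxylase that supplies malonyl-CoA for synthesis, had 156.5, 157 and 144.6 CPM in the control group and 84.4, 99.0 and 81.8 CPM in the hyperoside group (log2 fold change -0.79, standard error 0.08, edgeR adjusted p = 5.8e-07). ACLY, which splits citrate to cytosolic acetyl-CoA, had a log2 fold change of -0.46 (95% interval -0.62 to -0.31), and ACSS2, which makes acetyl-CoA from acetate, had -0.34 (95% interval -0.50 to -0.18), the smallest change among the called enzymes.

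ACACB, the carboxylase paralog at the outer mitochondrial membrane whose malonyl-CoA restrains fatty acid oxidation, rose while ACACA fell. It had 4.86, 5.45 and 6.66 CPM in the control group and 8.86, 7.65 and 10.3 CPM in the hyperoside group (log2 fold change 0.66, standard error 0.17, edgeR adjusted p = 0.00418). The groups did not overlap, but the level was low in all libraries. Per gene length, ACACA had 13.1 ± 0.442 FPKM in the control group and 7.87 ± 0.834 FPKM in the hyperoside group, and ACACB had 0.535 ± 0.0987 FPKM in the control group and 0.874 ± 0.128 FPKM in the hyperoside group (mean ± SD over 3 libraries). The ratio of ACACA to ACACB FPKM was 29.3, 26.2 and 19.8 in control replicates 1, 2 and 3 and 8.69, 11.8 and 7.199 in hyperoside replicates 1, 2 and 3. ACACA remained the more abundant carboxylase transcript in each library.

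Of the 4 desaturase genes tested, 3 were called lower, or 75.0%, beside 23.2% of all tested genes. SCD, the stearoyl-CoA desaturase that makes monounsaturated chains, had 632.1, 664.9 and 637.8 CPM in the control group and 309.1, 324.1 and 324.5 CPM in the hyperoside group. The replicates of each group lay close together and 49.5% of the control mean remained (log2 fold change -1.01, standard error 0.07, edgeR adjusted p = 2.17e-09). SCD, which has 1 annotated pseudogene, lies at chr10:100347124-100364834, plus strand, in GENCODE 29 on GRCh38. The genes FADS1, FADS2 and FADS3 lie next to each other on chromosome 11. FADS2, the front-end desaturase that starts polyunsaturated chain synthesis, had a log2 fold change of -0.74 (95% interval -1.03 to -0.46), and FADS3 had -0.69 (95% interval -0.92 to -0.47). FADS1, which acts after FADS2 in that pathway, had 118.6, 113.2 and 117.9 CPM in the control group and 115.3, 114.3 and 112.5 CPM in the hyperoside group. The FADS1 interval of -0.18 to 0.11 lay above those of its neighbours. FADS1 and FADS2 share exonic sequence on opposite strands, so some of their reads could be exchanged. Exons of FADS2 also overlap those of FEN1 on the same strand.

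Among the elongase genes 1 of 4 was called, as lower, or 25.0%, close to the 23.2% of all tested genes called lower. ELOVL5, which lengthens polyunsaturated chains, fell from 263.7 ± 15.7 to 183.7 ± 4.69 CPM (SD, n = 3 libraries each), a log2 fold change of -0.52 (edgeR adjusted p = 1.04e-05). ELOVL6, which lengthens palmitate, had 63.8, 69.6 and 67.1 CPM in the control group and 67.0, 73.0 and 60.2 CPM in the hyperoside group, and the 95% interval of its log2 fold change was -0.18 to 0.18. ELOVL1, an elongase of very long saturated chains, had an interval of -0.23 to 0.20. ELOVL7 was expressed at a low level, 0.751 FPKM in the control mean, and its interval of -0.76 to 0.12 was the widest of the 32. The sign of ELOVL1, ELOVL6 and FADS1 was not the same under all the alternatives run.

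Levels between genes were compared per length, in FPKM. SCD had the highest mean of the 32 enzymes in both groups, 120.9 ± 5.08 FPKM in the control group and 61.9 ± 1.31 FPKM in the hyperoside group. FDFT1 came next, with 91.4 ± 6.89 FPKM in the control group and 33.03 ± 1.08 FPKM in the hyperoside group, and went from rank 2 to rank 8 of the 32. MSMO1 had 27.7 ± 3.60 FPKM in the control group and 7.07 ± 1.03 FPKM in the hyperoside group, and went from rank 13 to rank 24. PMVK had 7.21 ± 1.64 FPKM in the control group and 11.7 ± 0.328 FPKM in the hyperoside group, and went from rank 26 to rank 16. FDPS, ELOVL5, SQLE, EBP and ACLY held ranks 3 to 7 in the control group, and their means of 56.5 to 78.6 FPKM fell to 39.2 to 54.6 FPKM. At the other end, ACACB, ELOVL7, MVK, FADS2 and SC5D held the lowest 5 ranks in both groups, with means from 0.54 to 4.15 FPKM in the control group. In the control group SQLE and EBP, with 62.0 ± 5.12 and 61.8 ± 6.04 FPKM, differed by less than their spread.

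**Figure D4:**
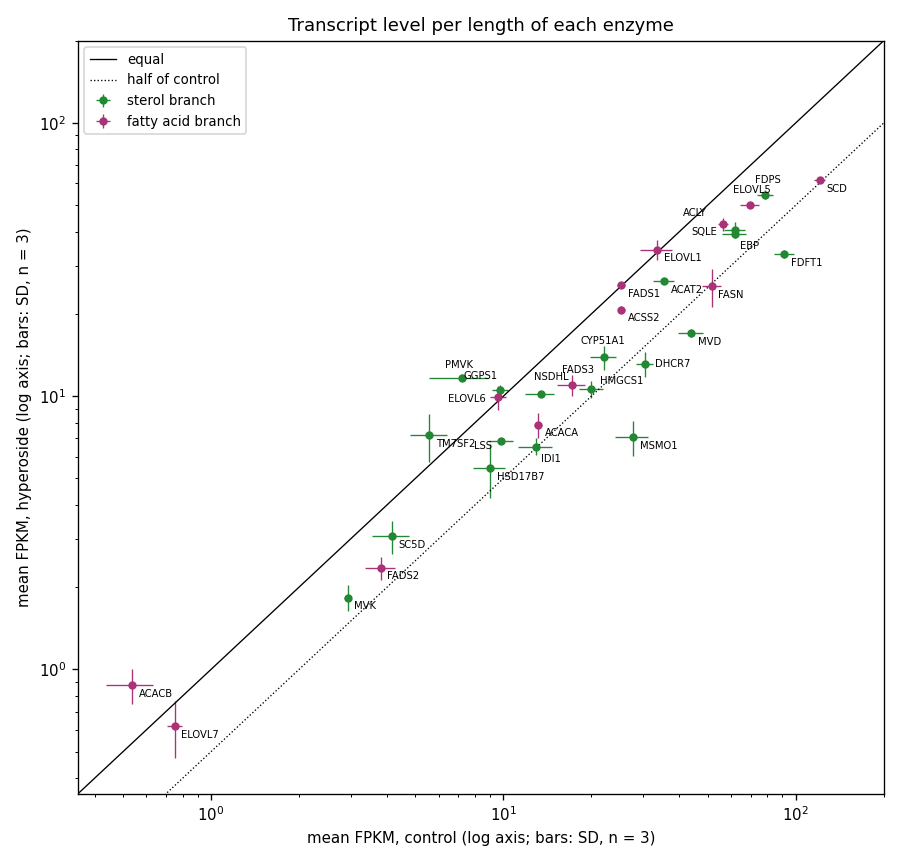
Mean FPKM of the 32 enzymes in the control group (horizontal log axis) and the hyperoside group (vertical log axis), with the SD of 3 libraries as bars. Points on the solid line are equal in both groups and points on the dotted line are lower by a fold of 2; MSMO1 and FDFT1 lie farthest below the dotted line, and PMVK and ACACB lie farthest above the solid line.

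Summed over the branch, the 19 sterol genes had 565.5, 559.9 and 518.6 FPKM in control replicates 1, 2 and 3 and 319.3, 323.5 and 314.1 FPKM in hyperoside replicates 1, 2 and 3. The hyperoside mean was 58.2% of the control mean. The 13 fatty acid genes summed to 424.3, 439.7 and 419.3 FPKM in the control group and 288.1, 303.2 and 287.8 FPKM in the hyperoside group, or 68.5% of the control mean. The sterol sum thus went from 1.28 ± 0.05 to 1.09 ± 0.02 times the fatty acid sum (SD, n = 3 libraries each), and in each control library this ratio was above that of each hyperoside library. By the median gene rather than the sum, the sterol branch lay 0.62, 0.65 and 0.71 below the control mean on the log2 CPM scale in hyperoside replicates 1, 2 and 3. The fatty acid branch lay 0.51, 0.47 and 0.49 below. Between the control libraries the same medians ranged from -0.11 to 0.06 in the sterol branch and from -0.02 to 0.04 in the fatty acid branch. In hyperoside replicates 1, 2 and 3, 16, 17 and 16 of the 19 sterol genes and 10, 10 and 12 of the 13 fatty acid genes were below their control mean. In control replicates 1, 2 and 3 these counts were 7, 7 and 12 for the sterol genes and 7, 4 and 8 for the fatty acid genes. The share of all tested genes below their control mean was not computed.

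Of 7 genes that control the SREBP factors, 2 were called lower and 1 higher, with a median log2 fold change of -0.05. The 28.6% called lower is near the 23.2% of all tested genes, of which 22.1% were called higher. INSIG1, which retains the SREBP precursors in the endoplasmic reticulum and is itself an SREBP target, had 166.3, 158.7 and 149.8 CPM in the control group and 46.4, 43.5 and 46.2 CPM in the hyperoside group. Its hyperoside mean was 28.7% of the control mean, between those of MSMO1 and FDFT1 (95% interval of the log2 fold change -1.96 to -1.64, edgeR adjusted p = 1.03e-11). SREBF2, the gene of the factor that mainly serves sterol genes, had 213, 199.5 and 187.7 CPM in the control group and 130.0, 121.8 and 129.8 CPM in the hyperoside group (log2 fold change -0.65, standard error 0.07, edgeR adjusted p = 1.29e-06). SREBF1, the gene of the factor that mainly serves fatty acid genes, had 63.3, 56.6 and 56.5 CPM in the control group and 56.3, 59.9 and 58.6 CPM in the hyperoside group. These values overlapped, and the interval of its log2 fold change was -0.19 to 0.16. MBTPS2, a protease that cuts the precursors, rose (log2 fold change 0.35, standard error 0.09, edgeR adjusted p = 0.00571). MBTPS1, the other protease, had 0.16 (adjusted p = 0.0873 in edgeR's test) and was not called, though its hyperoside libraries lay above its control libraries. With upper quartile factors, and with limma on log2(FPKM + 1) and on log2(FPKM + 0.1), MBTPS1 was called higher. INSIG2 had -0.25 (adjusted p = 0.061 in edgeR's test) and SCAP had -0.05 (adjusted p = 0.644 in edgeR's test). Without control replicate 1, INSIG2 was called lower (edgeR adjusted p = 0.014).

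**Figure D5:**
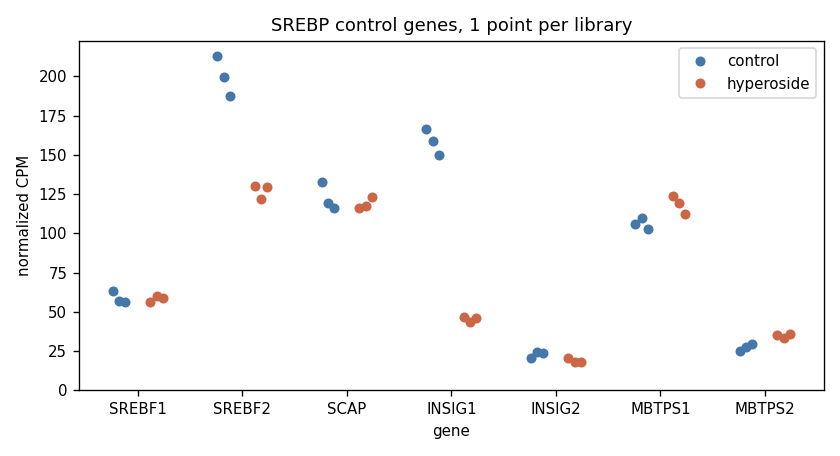
Normalized CPM of the 7 SREBP control genes, 1 point for each of the 3 control libraries (blue) and 3 hyperoside libraries (orange). INSIG1 and SREBF2 have hyperoside points below all control points, and SREBF1 and SCAP overlap.

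Of 8 suppliers of acetyl-CoA, NADPH and electrons, 2 were called lower, or 25.0%, close to the 23.2% of all tested genes, and the median log2 fold change was -0.12. SLC25A1, the mitochondrial citrate carrier that exports the substrate of ACLY, had 333.9, 288.7 and 280.2 CPM in the control group and 152.7, 167.5 and 173 CPM in the hyperoside group (log2 fold change -0.87, standard error 0.08, edgeR adjusted p = 1.3e-07). ME1, the cytosolic malic enzyme that makes NADPH, had a log2 fold change of -0.59 (edgeR adjusted p = 0.000278). The electron carriers POR, CYB5A, CYB5B, CYB5R1 and CYB5R3, which serve the sterol and desaturase steps, and the carboxylase activator MID1IP1 were not called, with log2 fold changes from -0.17 to 0.26. Of the 5 enzymes that complete each elongation round, 2 were called lower, or 40.0%, beside 23.2% of all tested genes. They were the reductase TECR (-0.46, edgeR adjusted p = 0.000185) and the dehydratase HACD2 (-0.88, edgeR adjusted p = 0.000302). HSD17B12, HACD1 and HACD3 were not called, though without control replicate 1 HSD17B12 was called lower (edgeR adjusted p = 0.0426).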

How the data were processed

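K562 RNA was sequenced in 3 control and 3 hyperoside libraries, grouped by their titles. The submitters' processing notes name fastp, HISAT2, HTSeq and the build hg38, while versions, annotation and strand setting are not given in the sources used here. The authors deposited raw counts per gene and FPKM values, which scale these counts to gene length and library total. Columns of pathway and ontology terms were not used.

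Counts were filtered with filterByExpr (minimum count 10, minimum total 15), normalized by TMM and compared with edgeR 4.0.16's quasi-likelihood test in R 4.3.3, with Benjamini-Hochberg adjustment over 15095 genes. The standard error is the log2 fold change divided by the square root of F. The 95% intervals use the fit's degrees of freedom. The paper names DESeq, which was not used here. Alternatives used DESeq2 1.42.0, limma 3.58.1, other factors, filters, pseudocounts and a replicate block, and left out each library. The script was tested on simulated data. Replicates of a group differed by more than counting noise, with chi-square per degree of freedom from 6.33 to 23.1. A marker of the K562 list is not reported here, and sums over that list leave it out. The members and lists were chosen with earlier results of these data known. Values in every library are given for the 3 called members with the smallest adjusted p per direction and branch, those past a fold of 2 and those whose call changed without 1 library, and other genes named by list were the 7 SREBP control genes and up to 3 called genes per direction of each further list. Further values were added to describe members.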

Additional observations from a re-analysis of the deposited data

How the results depend on the processing

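The 26 called enzymes stayed called in the same direction under each of the 14 alternatives, and 5 of the 6 enzymes not called stayed uncalled, TM7SF2 being the exception. The highest adjusted p of a called enzyme was 0.0494, for SC5D with limma on log2(FPKM + 1). In that alternative the median log2 fold change was -0.59 for the sterol and -0.40 for the fatty acid genes, the added 1 shrinking low values by construction. The fatty acid median was -0.41 with log2(FPKM + 0.1) and -0.42 with upper quartile factors. When each library was left out in turn, the sterol median ranged from -0.73 to -0.63, the fatty acid median from -0.52 to -0.41, and the sterol genes called higher from 1 to 2. The enzymes past a fold of 2 numbered 5 to 8 over all alternatives. With upper quartile factors, for example, IDI1 and SCD fell short of it, with log2 fold changes of -0.99 and -0.97. Of the 13 called genes of the other lists, 11 kept their call in all alternatives, and DHDDS and MCAT did not. The number called in these lists ranged from 11 to 16. Over all genes, lower calls outnumbered higher ones (3508 and 3333), but with upper quartile factors 3052 were lower and 3666 higher, with log2(FPKM + 1) 2783 and 3563, with log2(FPKM + 0.1) 2814 and 3562, and without hyperoside replicate 3 2891 and 2894. The labels do not say whether the replicate numbers pair the libraries. Deviations of same-numbered libraries correlated at -0.081, -0.033 and -0.034, which shows no shared effect of the number but cannot exclude pairing. With the number as a replicate block, 16 sterol genes were lower and 1 higher, 8 fatty acid genes were lower and 1 higher, and 3103 genes were lower and 3026 higher over the table. The intervals were widest for ELOVL7, ACACB and TM7SF2, which have low counts.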

Other observations

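Of 11 genes that use isoprenoids beyond farnesyl diphosphate, 10 were tested, 2 were called lower and 1 higher, with a median log2 fold change of 0.04. The 20.0% called lower is close to the 23.2% of all tested genes, of which 22.1% were called higher. NUS1 and DHDDS encode the subunits of the enzyme that makes the dolichol chain for protein glycosylation, and NUS1 was called lower and DHDDS higher. NUS1 had 96.7, 113 and 116.6 CPM in the control group and 68.9, 63.8 and 63.5 CPM in the hyperoside group (log2 fold change -0.73, standard error 0.08, edgeR adjusted p = 1.68e-06). DHDDS rose (log2 fold change 0.28, standard error 0.10, edgeR adjusted p = 0.0291), but its call was lost with the replicate block and without control replicate 2 or 3 or hyperoside replicate 2 or 3, and its adjusted p ranged from 0.00173 to 0.157 over the alternatives. RABGGTB, a subunit of the prenyltransferase of RAB proteins, fell (log2 fold change -0.32, standard error 0.07, edgeR adjusted p = 0.00127). RABGGTA, the other subunit gene of that enzyme, was not called (log2 fold change 0.17, edgeR adjusted p = 0.282). The prenyltransferase subunit genes FNTA and PGGT1B were not called either.

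Of 5 genes of mitochondrial fatty acid synthesis, a separate pathway that supplies lipoic acid, 2 were called lower and 1 higher. The 40.0% called lower compares with 23.2% of all tested genes, of which 22.1% were called higher. HSD17B8 had 26.7, 20.8 and 19.5 CPM in the control group and 9.32, 11.4 and 11.1 CPM in the hyperoside group (log2 fold change -1.07, standard error 0.13, edgeR adjusted p = 3.91e-06). CBR4, which forms the mitochondrial ketoacyl reductase together with HSD17B8, had 43.7, 49.6 and 51.2 CPM in the control group and 30.5, 26.8 and 24.7 CPM in the hyperoside group (log2 fold change -0.82, standard error 0.10, edgeR adjusted p = 3.65e-06). In both genes the groups did not overlap. MCAT rose (log2 fold change 0.42, standard error 0.16, edgeR adjusted p = 0.0376), but its call was lost with no filter, with the replicate block and without control replicate 1 or 3 or hyperoside replicate 2 or 3, and its adjusted p ranged from 0.0153 to 0.108 over the alternatives. OXSM and MECR were not called, though OXSM was called higher without control replicate 1 (edgeR adjusted p = 0.0102).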
